A study of Mus musculus with 6 samples.

Results

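Respiratory complex I, NADH:ubiquinone oxidoreductase, was followed here through the nuclear genes of its subunits in the gastrocnemius muscle of young and aged mice. Members were all genes whose symbol is Nduf followed by a, b, c, s or v and a number. The rule itself uses no measured value, but the members were chosen with earlier results of these data known. The reference held 37 such genes. Of these, 36 had a probe on the array, and 35 are described here, among 20900 genes tested in all. Ndufb1 and the subunits encoded by mitochondrial DNA had no matched probe and are not analysed here. The young group was 3 male mice aged 13 weeks and the aged group 3 male mice aged 26 months, C57BL/6J by the methods of the study, with no treatment named in the labels. Total RNA of the whole muscle was labelled with Cy3 and hybridized to 1 single-colour Agilent mouse array per mouse. Levels are log2 processed signal minus the 75th percentile of the array, called log2 signal below, and differences are aged minus young. Signals of different probes are not transcript levels on 1 scale, and bright or dim refers to the signal of a probe alone. In RNA of a whole muscle, fewer cells of a type and less RNA per cell cannot be told apart.

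Complex I takes electrons from NADH, passes them along a flavin and a chain of iron-sulfur clusters to ubiquinone, and pumps protons across the inner mitochondrial membrane. It is shaped like an L. The matrix arm holds the flavin, the clusters and the ubiquinone site, and the membrane arm holds the proton pumps, whose core is encoded by mitochondrial DNA. Around the catalytic core sit accessory subunits, needed for assembly and stability and all encoded in the nucleus. Skeletal muscle, above all its oxidative fibres, is rich in this complex.

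All 6 arrays shared 1 slide and 1 scan. The 3 young mice and aged mouse 1 occupied row 1 of the slide, and aged mice 2 and 3 row 2. Over probes, the 75th percentile of signal ranged from 209.5 to 299.9 in young and from 270.8 to 310.7 in aged mice. From 48.7% to 53.8% of probes exceeded background by the detection flag, and none was saturated. Arrays of young mouse 3 and aged mouse 1 stood apart. Among the 2438 other genes with a mean signal in the range of the members, 1.31% and 1.68% were lower by at least 1 log2 unit there than on both other arrays of the group, against 0.0410% to 0.328% on the remaining arrays. Of the 10 skeletal muscle fibre markers, 9 had a kept probe, with a summed signal of 6803 to 8230 in young and of 5675 to 7324 in aged mice, in multiples of the 75th percentile. Markers of heart muscle summed to at most 2.23.

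Mean signals of complex I subunit genes were slightly and broadly lower in aged muscle. No single gene passed the test, and the members were not tested as a set. Bright probes were lower too, and the shift differed between arrays, as given below. The mean was lower in aged mice for 33 of 35 members, against 11882 of all 20900 genes (56.9%). The median difference of the members was -0.28 on the log2 scale, against -0.06 over all genes, with a range from -0.54 for Ndufa12 to 0.32 for Ndufa10. Of the members, 21 lay between -0.4 and -0.2. With limma and Benjamini-Hochberg adjustment over all genes, 0 of 35 members had an adjusted p under 0.05, against 53 of all genes (0.254%; 0.196% higher and 0.0574% lower), and the smallest adjusted p of a member was 0.206. An unadjusted limma p under 0.05 was found for 5 members, Ndufa12, Ndufa9, Ndufc2, Ndufs4 and Ndufb6, all lower in aged mice, against 8.36% of all genes lower and 6.07% higher. All 3 aged mice lay below all 3 young mice for 18 of 35 members, against 13.9% of all genes, and above them for 0 members, against 7.92% of all genes.

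**Figure D1:**
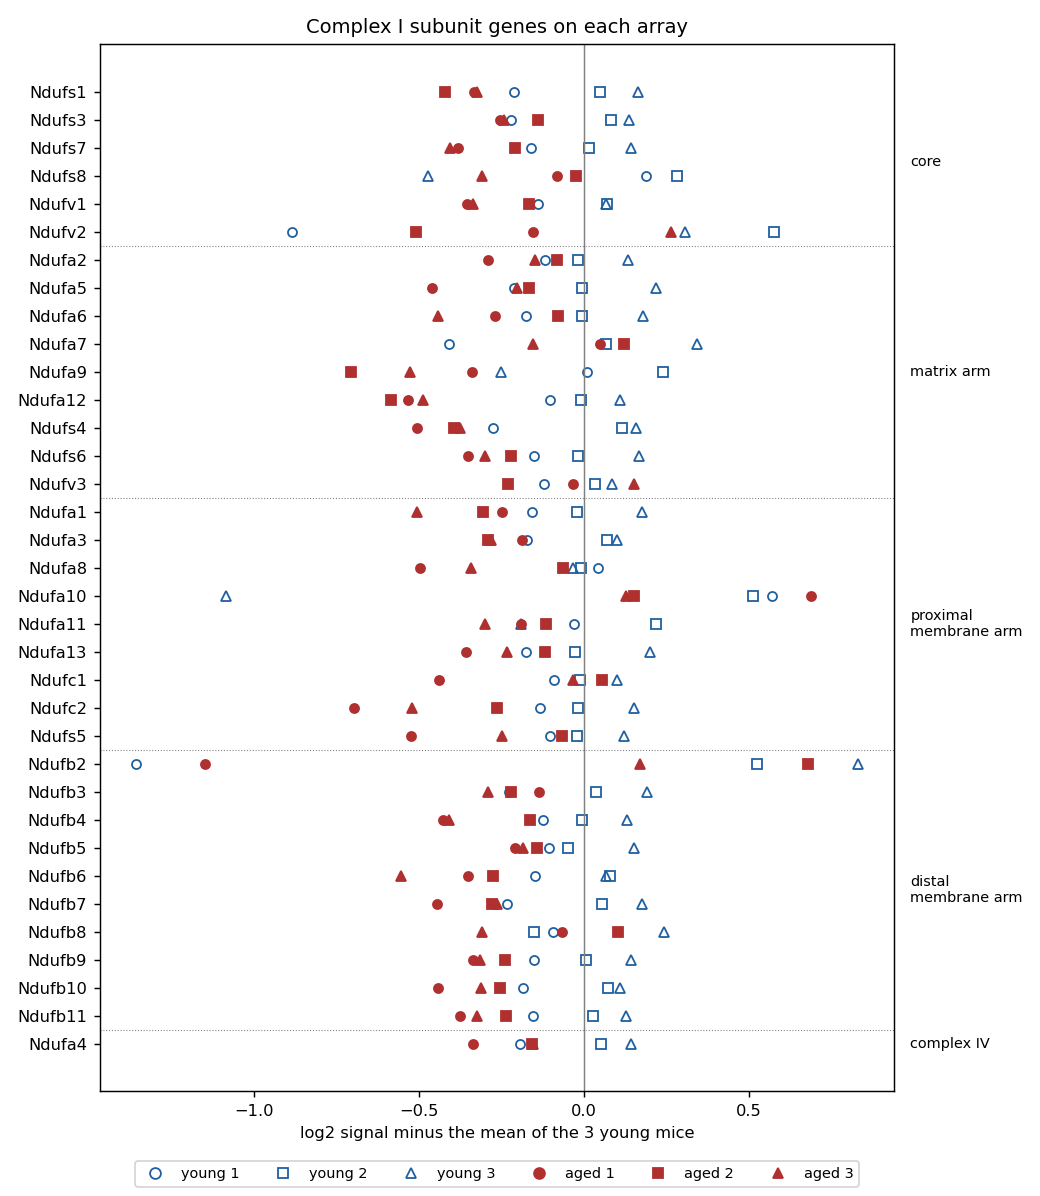
Log2 signal of each of the 35 subunit genes on the 6 arrays, relative to the young mean (horizontal axis), with genes grouped by their place in the complex (vertical axis). Open symbols are young mice and filled symbols aged mice. Most filled symbols lie left of 0, Ndufa12 is the lowest in mean difference (-0.54), and the points of Ndufa10, Ndufb2 and Ndufv2 spread over more than 1 log2 unit within a group.

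The members are bright probes. Their mean signal lay between the 88.0 and 99.8 percentiles of all genes tested, with 28 of 35 above the 95th percentile, and all 41 of their probes were well above background on all 6 arrays. Bright probes as a whole had a lower mean in aged mice, most of all on the array of aged mouse 1, as given by mouse below. The 2438 other genes in the same range of signal had a median difference of -0.12, with 70.3% lower in mean and 20.8% below all young mice in all aged mice. Each member was therefore set against the 500 other genes nearest to it in mean signal, called equally bright genes below. The difference of the member minus the median of its equally bright genes had a median of -0.14, with 30 members below their equally bright genes and 5 above. The members as a set were not tested against these genes.

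**Figure D2:**
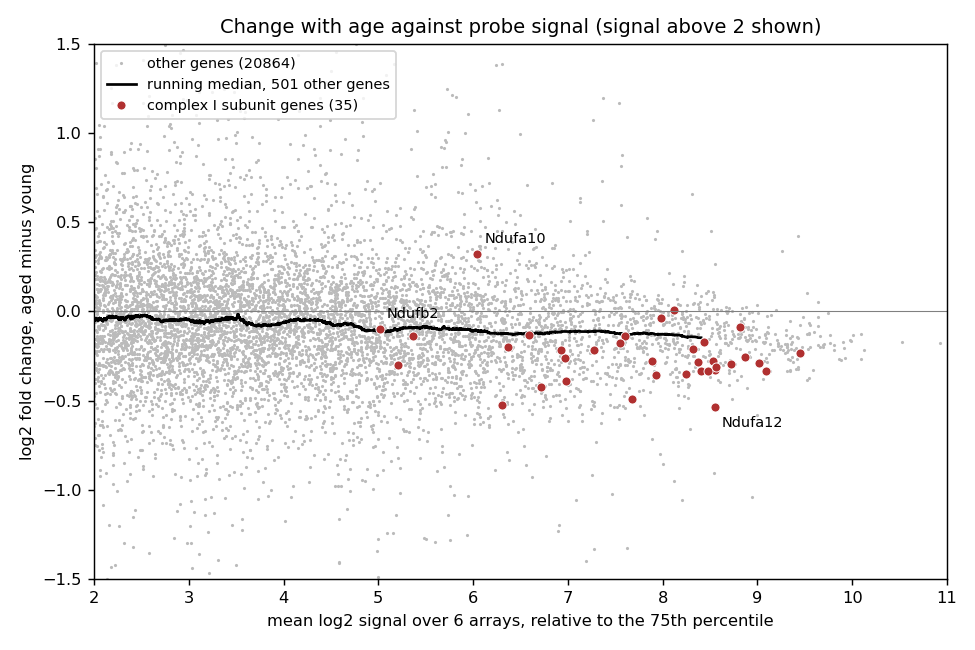
Difference of each gene between aged and young mice (log2, vertical axis) against its mean log2 signal over the 6 arrays (horizontal axis), for signals above 2 and differences between -1.5 and 1.5. Red points are the 35 subunit genes, grey points other genes, and the black line is the running median of other genes. The line lies below 0 at high signal, and 30 of 35 red points lie below their equally bright genes.

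By mouse, the members had a median of -0.15, 0.04 and 0.14 relative to the young mean for the 3 young mice in order. For the aged mice it was -0.34, -0.17 and -0.30. Every aged mouse was thus below every young mouse, by little in the case of aged mouse 2 and young mouse 1. Of 35 members, 33, 30 and 31 lay below the young mean in aged mice 1, 2 and 3, and 31, 14 and 5 in young mice 1, 2 and 3, so that young mouse 1 was within the counts of the aged mice. Relative to equally bright genes, the young mice stood at -0.06, 0.09 and 0.01 and the aged mice at -0.06, -0.16 and -0.21. On this scale aged mouse 1 was level with young mouse 1, and its equally bright genes were low as well, with a median of -0.27. Those genes had medians of -0.02 and -0.09 in aged mice 2 and 3, and of -0.08, -0.05 and 0.13 in the young mice. The shift beyond that of bright probes was therefore seen in aged mice 2 and 3, which are also the arrays in row 2 of the slide. With the row as a block, which compares aged mouse 1 alone with the young mice, the median of the members was -0.34 and that relative to equally bright genes -0.06.

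**Figure D3:**
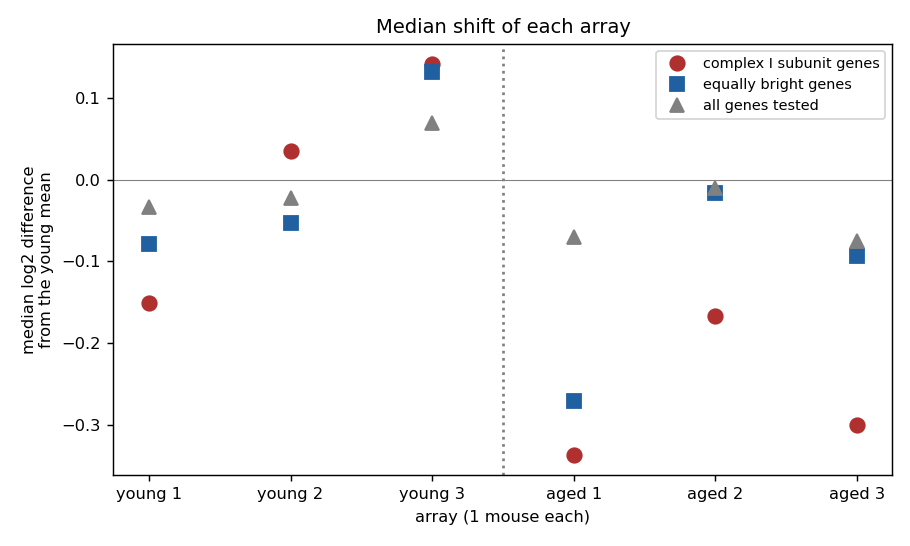
Median log2 difference of each array from the young mean (vertical axis; 1 array per mouse on the horizontal axis) for the 35 subunit genes (circles), their equally bright genes (squares) and all genes tested (triangles). Circles lie between -0.15 and 0.14 in young mice and between -0.34 and -0.17 in aged mice, and in aged mouse 1 the squares are low too (-0.27).

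For the catalytic core encoded in the nucleus, 6 members are described. All 6 were lower in aged mice, with a median of -0.25 (-0.12 relative to equally bright genes). For 3, all aged mice lay below all young mice, against 13.9% of all genes and 20.8% of other genes in the members' signal range. Those 3 were Ndufs1, the largest iron-sulfur subunit (-0.36), Ndufs7, which carries the last cluster before ubiquinone (-0.33), and Ndufv1, which binds NADH and the flavin (-0.28). Ndufs3 (-0.21), Ndufs8 (-0.14) and Ndufv2 (-0.13), of which the latter pair carry clusters, overlapped between the groups.

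Accessory subunits of the matrix arm held the lowest differences, those of Ndufa12 and Ndufa9. Of 9 members, 8 were lower in aged mice, with a median of -0.28 (-0.14 relative to equally bright genes). Without overlap 4 were lower, against 13.9% of all genes and 20.8% of other genes in the members' signal range. Ndufa12, which resembles the assembly factor Ndufaf2, had log2 signals of 8.71, 8.81 and 8.93 in young and of 8.28, 8.23 and 8.33 in aged mice, in the order of their numbers. The groups were narrow and lay well apart. The mean of 8.82 ± 0.11 in young (SD, n = 3) and 8.28 ± 0.05 in aged mice gave a difference of -0.54 (0.690-fold, SE 0.15), with an unadjusted limma p of 0.00911 and an adjusted p of 0.206. This was the smallest p among the members. Ndufa9, a relative of the short-chain dehydrogenases that sits near the ubiquinone site, had log2 signals of 6.57, 6.80 and 6.31 in young and of 6.23, 5.86 and 6.04 in aged mice. Its highest aged mouse lay just below its lowest young mouse. The difference was -0.52 (0.696-fold, SE 0.19, limma adjusted p = 0.302). Ndufs4, whose loss in mice causes a fatal encephalopathy, had log2 signals of 6.65, 7.04 and 7.09 in young and of 6.42, 6.53 and 6.55 in aged mice. Again no aged mouse reached the lowest young mouse. The difference was -0.42 (0.745-fold, SE 0.18, limma adjusted p = 0.345).

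The remaining 6 members of this arm were lower by less or did not differ in mean. Ndufs6, a zinc-binding subunit, was lower by -0.29 without overlap. Ndufa5 (-0.28), Ndufa6 (-0.26), which belongs to the LYR family and holds an acyl carrier protein, and Ndufa2 (-0.17), with a thioredoxin-like fold, overlapped between the groups. Ndufa7 had log2 signals of 7.71, 8.19 and 8.46 in young and of 8.17, 8.24 and 7.97 in aged mice, so that the aged mice lay within the range of the young. Its difference was 0.01 (SE 0.23, limma adjusted p = 0.991). Ndufv3, for which 2 probes were kept, had log2 signals of 7.88, 8.04 and 8.09 in young and of 7.97, 7.77 and 8.16 in aged mice on the brighter probe. The groups overlapped, with a difference of -0.04 (SE 0.17, limma adjusted p = 0.933). Its dimmer probe gave -0.44.

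The promoter windows of RefSeq (build GRCm38.p6, 250 bases before to 50 after the start) were searched for the letters bound by factors known to act on genes of respiration. Shown are the windows of Ndufa9 and Ndufs4, as members with an unadjusted p under 0.05 that hold a match, and of Ndufs6, as a member of the same arm without overlap that holds matches to a pair of motifs. Capitals mark AAGATGGC, the letters of YY1, and in Ndufs6 also those of NRF1, which are GCGC and TGCGC with any base between them, or the same read on the other strand. All are printed 5′ to 3′ on the strand of the gene, which is the minus strand for each.
Ndufa9, chr6:126849095-126849394: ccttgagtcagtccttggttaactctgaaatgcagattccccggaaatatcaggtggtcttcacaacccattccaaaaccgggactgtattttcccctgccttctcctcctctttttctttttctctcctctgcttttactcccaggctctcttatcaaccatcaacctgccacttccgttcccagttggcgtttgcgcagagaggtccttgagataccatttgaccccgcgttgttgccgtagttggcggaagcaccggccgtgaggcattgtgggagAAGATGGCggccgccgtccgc
Ndufs4, chr13:114388045-114388344: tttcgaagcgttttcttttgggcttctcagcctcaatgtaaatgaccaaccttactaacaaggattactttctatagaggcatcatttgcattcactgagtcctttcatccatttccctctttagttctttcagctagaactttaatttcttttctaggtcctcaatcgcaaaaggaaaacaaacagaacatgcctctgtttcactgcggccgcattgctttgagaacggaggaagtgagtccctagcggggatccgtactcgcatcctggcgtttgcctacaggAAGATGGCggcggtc
Ndufs6, chr13:73328433-73328732: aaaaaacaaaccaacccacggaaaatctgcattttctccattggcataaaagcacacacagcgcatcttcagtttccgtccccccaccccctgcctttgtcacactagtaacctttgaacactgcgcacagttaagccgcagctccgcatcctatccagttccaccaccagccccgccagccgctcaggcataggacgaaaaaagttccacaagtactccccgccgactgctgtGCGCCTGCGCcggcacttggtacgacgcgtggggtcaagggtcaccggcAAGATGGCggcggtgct
In all 3 windows the YY1 letters lie after the start, at bases 30, 36 and 34 counted from the first base of the transcript, and contain the letters ATG. The windows of Ndufa12, Ndufc2 and Ndufb6, the other members with an unadjusted p under 0.05, hold none of the motifs searched.

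Accessory subunits of the proximal membrane arm, the part next to the matrix arm, have 9 members. Of these, 8 were lower in aged mice, with a median of -0.25 (-0.11 relative to equally bright genes). Without overlap 4 were lower, against 13.9% of all genes and 20.8% of other genes in the members' signal range. Ndufc2, a small membrane subunit, had log2 signals of 7.79, 7.91 and 8.08 in young and of 7.23, 7.66 and 7.40 in aged mice. All aged mice were below all young mice, aged mouse 1 by the most. The difference was -0.49 (0.710-fold, SE 0.18, limma adjusted p = 0.299). Ndufa1 (-0.35), Ndufa8 (-0.30) and Ndufa3 (-0.25) had no overlap either, while Ndufs5 (-0.28), Ndufa11 (-0.20) and Ndufc1 (-0.14) overlapped. Ndufa8 and Ndufs5 lie on the side of the intermembrane space. Ndufa13, also known as Grim-19 and the brightest of the members, had log2 signals of 9.39, 9.54 and 9.77 in young and of 9.21, 9.45 and 9.33 in aged mice. Aged mouse 2 was above young mouse 1, and the difference was -0.24 (SE 0.17, limma adjusted p = 0.554). Ndufa10, a relative of nucleoside kinases, had log2 signals of 6.45, 6.40 and 4.80 in young and of 6.57, 6.03 and 6.01 in aged mice. Young mouse 3 was far below the other five mice. The difference of 0.32 (SE 0.46, limma adjusted p = 0.773) became -0.22 without that mouse.

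Accessory subunits of the distal membrane arm, the far end of the complex, had the most members without overlap. All 10 members tested were lower in aged mice, with a median of -0.30. Of the 10, 7 had no overlap, against 18 of 35 members, 13.9% of all genes and 20.8% of other genes in their signal range. Relative to equally bright genes the median was -0.16, near the -0.14 of the matrix arm, and the arms were not compared by a test. Ndufb6 had log2 signals of 7.03, 7.26 and 7.25 in young and of 6.83, 6.91 and 6.63 in aged mice, which did not overlap. The difference was -0.39 (0.761-fold, SE 0.16, limma adjusted p = 0.343), and its second probe gave -0.51. Of the others, Ndufb10 (-0.34) and Ndufb7 (-0.33), both on the side of the intermembrane space, Ndufb4 (-0.33), Ndufb11 (-0.31), Ndufb9 (-0.30), another LYR protein, and Ndufb5 (-0.18) had no overlap. Ndufb3 (-0.22) overlapped. Ndufb8 had log2 signals of 8.77, 8.71 and 9.11 in young and of 8.80, 8.97 and 8.56 in aged mice. The groups overlapped, with a difference of -0.09 (SE 0.19, limma adjusted p = 0.850). Ndufb2, the dimmest of the members, had log2 signals of 3.71, 5.59 and 5.90 in young and of 3.92, 5.75 and 5.23 in aged mice. One mouse of each group was low, young mouse 1 and aged mouse 1, and the difference was -0.10 (SE 0.68, limma adjusted p = 0.954). Without aged mouse 1 it was 0.43. Ndufb4 is shown because its window holds 3 matches to the NRF1 letters and 1 to AAGGTCA, those of ERR alpha, in capitals, on the minus strand of chromosome 16.
Ndufb4, chr16:37654319-37654618: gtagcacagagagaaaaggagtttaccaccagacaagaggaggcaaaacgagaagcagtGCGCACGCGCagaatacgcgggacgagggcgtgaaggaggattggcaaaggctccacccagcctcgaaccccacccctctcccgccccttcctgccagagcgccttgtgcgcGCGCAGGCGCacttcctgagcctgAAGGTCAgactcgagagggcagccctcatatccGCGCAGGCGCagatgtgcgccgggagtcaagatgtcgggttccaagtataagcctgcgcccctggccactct
Ndufa4, named for complex I but found in complex IV, was lower by -0.21 with overlap between the groups.

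**Figure D4:**
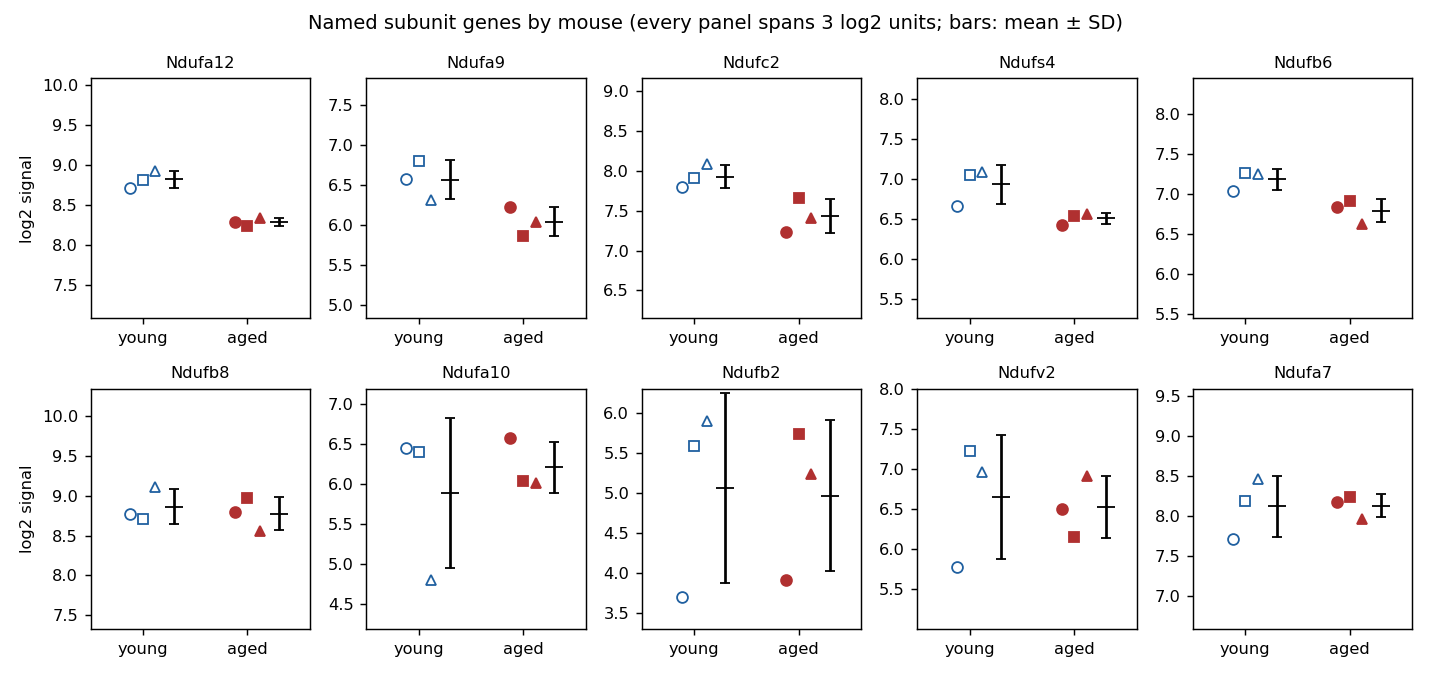
Log2 signal (vertical axis, every panel spanning 3 log2 units) of 10 subunit genes in each young (open) and aged (filled) mouse, with the mean ± SD of the 3 mice of a group beside the points. The upper row holds the 5 genes with an unadjusted p under 0.05, none of which overlap between the groups. In the lower row, young mouse 3 is the highest for Ndufb8 and far below the others for Ndufa10, young mouse 1 and aged mouse 1 are both low for Ndufb2, and young mouse 1 is the lowest for Ndufv2 and Ndufa7.

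The spread within a group was small for most members and wide for a few. The range within a group was over 1 log2 unit for 3 members, Ndufa10, Ndufb2 and Ndufv2, or 8.57%, against 9.35% of the other genes in the same range of signal. Ndufv2, named here after its values were seen, had log2 signals of 5.77, 7.23 and 6.96 in young and of 6.50, 6.15 and 6.92 in aged mice, with young mouse 1 low. Of the other 32 members, 31 were lower in aged mice, with a median of -0.28, a range from -0.54 to 0.01, and an SD of at most 0.412 in young and 0.264 in aged mice. The 95% interval of the difference included 0 for 30 of 35 members. For Ndufa12 the interval ran from -0.89 to -0.18.

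Second probes were available for 6 members. All 6 were lower in aged mice, at -0.40 for Ndufa5, -0.77 for Ndufb11, -0.36 for Ndufb4, -0.14 for Ndufb5, -0.51 for Ndufb6 and -0.44 for Ndufv3. The direction was thus the same on both probes of each gene. Over all 41 probes, 39 were lower in aged mice.

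Of the 35 members, 32 had a promoter window. The NRF1 letters, read on both strands, occurred in 7 of 32 windows (21.9%), against 5.2% of the windows of all 27025 genes in the table. The YY1 letters AAGATGGC occurred in 7 of 32 (21.9%), against 3.2% of all. The ERR alpha letters AAGGTCA occurred in 3 of 32 (9.4%), against 5.4%, and the GABPA letters CCGGAAGT in 1 of 32 (3.1%), against 4.3%. At least 1 of the 4 was present in 15 of 32 (46.9%), against 16.6% of all. All YY1 matches of members lay between 23 and 39 bases after the start, as printed above for Ndufa9, Ndufs4 and Ndufs6. Among the 16 members without overlap that had a window, the NRF1 letters occurred in 3 and the YY1 letters in 5. The shares describe letters in a window and were not tested.

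Regulators of mitochondrial genes, a list that holds the genes of NRF1, GABPA and ERR alpha but not that of YY1, had mixed differences. The 8 on the list had a median of -0.03, with 5 lower and 3 higher in aged mice and none past the adjusted threshold. Esrra, which encodes ERR alpha, a nuclear receptor that drives genes of oxidative phosphorylation, had log2 signals of 6.62, 6.85 and 6.83 in young and of 6.48, 6.23 and 6.05 in aged mice. All aged mice were below all young mice, and the difference was -0.51 (SE 0.18, limma unadjusted p = 0.0239, adjusted p = 0.285). Tfb1m, which methylates the RNA of mitochondrial ribosomes, had log2 signals of 2.14, 1.80 and 2.35 in young and of 2.38, 2.82 and 2.85 in aged mice, a difference of 0.59 in the other direction (SE 0.22, limma unadjusted p = 0.0323, adjusted p = 0.303). The coactivators Ppargc1a (-0.02) and Ppargc1b (0.18), the factors Nrf1 (-0.04) and Gabpa (-0.18), and Tfam (0.11) and Tfb2m (-0.21), which serve transcription of mitochondrial DNA, all had unadjusted p over 0.05 with limma.

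Of the other parts of complex I, 2 genes were tested, with none past the adjusted threshold in limma. Ndufab1, the acyl carrier protein held by the LYR subunits, had log2 signals of 1.29, 1.58 and 1.73 in young and of 1.32, 1.35 and 1.75 in aged mice, which overlapped, with a difference of -0.06. Ndufa4l2, a paralog of Ndufa4 known as a hypoxia-induced gene, had log2 signals of 1.92, 2.16 and 2.67 in young and of 1.51, 1.68 and 1.31 in aged mice. No aged mouse reached a young one, and the difference was -0.75 (SE 0.23, limma unadjusted p = 0.0153, adjusted p = 0.243). Of 21 assembly factors, 20 were tested. They had a median of -0.19 (-0.11 relative to equally bright genes), with 14 lower and 6 higher, and 0 past the adjusted threshold. Without overlap 7 were lower, against 13.9% of all genes, and 3 were lower at an unadjusted limma p under 0.05, against 8.36%.

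Other complexes of the respiratory chain had values close to those of complex I. The 42 genes of complexes II to V had a median of -0.27 (-0.14 relative to equally bright genes), with 38 lower and 4 higher in aged mice and 18 lower without overlap. An unadjusted limma p under 0.05 was found for 3 of them, all lower, and an adjusted p under 0.05 for 0. Over all genes, beside this list and the next, 13.9% were lower without overlap, 8.36% lower at that unadjusted p and 0.254% past the adjusted threshold. The medians were -0.22 for the 4 genes of complex II, -0.30 for the 9 of complex III, -0.21 for the 13 of complex IV and -0.28 for the 16 of complex V. The 18 genes of the citric acid cycle, 4 of which are those of complex II, had a median of -0.24 (-0.12 relative to equally bright genes), with 15 lower, 7 without overlap, and 0 past the adjusted threshold against 2 lower at an unadjusted limma p under 0.05. By these values, the lower signal was not seen in complex I alone. The difference between complex I and these lists was not tested.

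**Figure D5:**
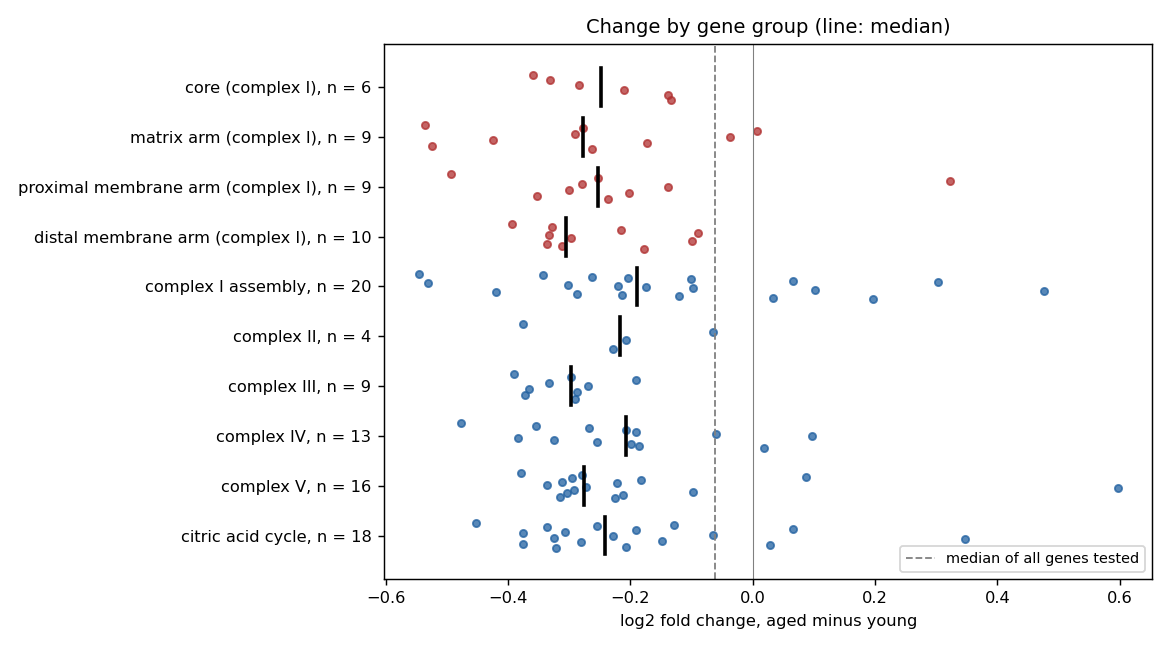
Difference between aged and young mice (log2, horizontal axis) of each gene (points) by group (vertical axis), for the 4 groups of complex I subunits (red) and the assembly factors, the other respiratory complexes and the citric acid cycle (blue). Black lines are the medians of the groups, from -0.30 to -0.19, and the dashed line is the median of all genes tested (-0.06).

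Markers of fibre type and of other cells were compared in the same way. Slow or oxidative fibre markers were lower in aged mice for 9 of 9, with a median of -0.58 (-0.46 relative to equally bright genes). Their summed signal was 1828 to 2376 in young and 1294 to 1768 in aged mice, which did not overlap. Skeletal muscle fibre markers were also lower for 9 of 9 tested, with a median of -0.18 (-0.03 relative to equally bright genes). Their sums, given above, overlapped between the groups. Erythrocyte markers (6 of 6 tested lower, median -1.05) summed to between 637.8 and 927.3 in young and between 290.4 and 462.0 in aged mice. Fibroblast markers (6 of 6 lower, median -0.79) summed to between 447.1 and 508.7 in young and between 209.1 and 343.4 in aged mice. Macrophage markers were higher for 7 of 8 tested (median 0.60), with sums from 23.8 to 25.6 in young and from 28.1 to 34.4 in aged mice. Schwann cell markers (5 of 6 lower) summed to between 10.8 and 12.1 in young and between 8.26 and 9.24 in aged mice, and endothelial markers (3 of 5 lower) to between 30.7 and 34.4 and between 20.8 and 29.4. Adipocyte markers (5 of 6 lower), brown adipocyte markers (1 of 3 lower) and lymphocyte markers (2 of 3 lower) had sums that overlapped between the groups. In limma, 1 marker passed the adjusted threshold, Prx of myelinating Schwann cells. It fell by 1.29 on the log2 scale (SE 0.16, limma adjusted p = 0.0428). Mbp, of the same marker list, went the other way without overlap, higher by 1.33 in aged mice (SE 0.18, limma adjusted p = 0.0527). At an unadjusted limma p under 0.05, 8.36% of all genes were lower and 6.07% higher. Of the markers, 4 slow fibre, 5 erythrocyte, 3 fibroblast, 5 Schwann cell and 1 endothelial marker were lower at that p. By the same measure 4 macrophage markers and 1 marker each of Schwann cells, brown adipocytes and lymphocytes were higher, and 0 skeletal muscle fibre, adipocyte or heart muscle markers were below that p. The part of these markers in the lower signal of the complex I members was not tested.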

How the data were processed

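Gene expression was measured with 6 single-colour Agilent arrays, 1 per mouse. The authors deposited Feature Extraction output (version 9.5 per the labels, 11.0.1.1 per the file headers), in which the processed signal is a linear intensity corrected for background and for trends across each array, with no scaling from array to array. The median spot and background intensities deposited beside it were used for an alternative. Intensities of the deposited series matrix were identical to it. The methods name no normalization or test for the arrays.

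Of 55681 non-control probes, 12 with only flagged spots on some array were left out. Spots of a probe were averaged as log2 intensity, and each array's 75th percentile over probes was subtracted. Accessions of the files were looked up among the RefSeq transcripts of GRCm38.p6, and 28325 probes received a symbol. Probes well above background on at least 3 of 6 arrays were kept, and the brightest probe represented a gene. This left 20900 genes, 13843 with a symbol. The number of arrays limits the precision. The 2 ages were compared by limma (version 3.58.1, R 4.3.3) using lmFit and eBayes. Adjustment was by Benjamini-Hochberg over all genes, and 0.05 was the threshold. The fit was checked on simulated data with independent noise and known changes larger than the differences of the members. That check does not bear on changes as small as theirs. Exact permutation of 3 against 3 mice has a smallest two-sided p of 0.1 and was not used. The limma p-values weigh the difference between the ages against the spread within each age, moderated over all genes. Each mouse had its own array, so that this spread mixes mouse and array, and in the aged group also slide row. It cannot be read as the spread between mice alone.

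A gene that meets the rule for members is not reported here. The members and lists were chosen with earlier results of these data known. Values by mouse are given for members with an unadjusted p under 0.05, the 4 with the lowest and the 4 with the highest difference, the brightest and the dimmest, the regulators past that p, and subunits outside the symbol rule. The other regulators are given as differences. The labels name no pairing of mice by replicate number, and none was used in the main fit. Deviations of same-numbered mice correlated at -0.06, -0.27 and 0.03, and those of differently numbered mice from -0.21 to 0.35. With 3 mice per group, these values cannot exclude a pairing. Alternatives were normexp background correction (offset 50), quantile and median scaling, a percentile taken only over probes detected on every array, other filters, other choices of probe, the series matrix, a mean-variance trend, slide row and replicate number as blocks, fewer or more equally bright genes, and leaving out mice.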

Additional observations from a re-analysis of the deposited data

How the results depend on the processing

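No member passed the adjusted threshold in limma under any alternative, with a smallest adjusted p between 0.101 (mean-variance trend) and 0.484 (without young mouse 2). The number of members with a lower mean was 29 to 34 of 35 (39 of 41 as single probes), and the median relative to equally bright genes was between -0.21 and -0.06. The median of the members was -0.28 in the main setting, -0.14 with quantile normalization and -0.42 with median scaling, which also moved the median of all genes from -0.06 to -0.21 and the share of genes lower in aged mice from 56.9% to 71.2%. Leaving out 1 mouse gave medians from -0.35 to -0.22. The median difference of the equally bright genes was -0.13 in the main setting, 9.2e-07 with quantile normalization and -0.05 without aged mouse 1. The count of members with an unadjusted p under 0.05, 5 in the main setting, was 9 with normexp, 15 with the trend, 3 without a filter, 2 with quantile normalization, with the percentile over detected probes and with the slide row as a block, and 1 to 4 when 1 mouse was left out. With the replicate number as a block it was 1, and 5 genes of all passed the adjusted threshold in place of 53. The count over all genes was 8 without a filter, 35 with probes detected on all 6 arrays, and 1 (without aged mouse 3) to 199 (without aged mouse 1). Leaving out young mouse 3 and aged mouse 1 together, chosen after seeing the data, gave 198 genes, 2 members with an unadjusted p under 0.05 and a median of -0.21. Members with values by mouse under the stated rule were recomputed one by one, and the sign turned for 5 of them in some settings, while the other members entered only the counts above. Leaving out 1 mouse gave -0.22 (young mouse 3) to 0.61 for Ndufa10, -0.78 to 0.43 (aged mouse 1) for Ndufb2, -0.19 to 0.032 (young mouse 3) for Ndufb8, -0.13 to 0.060 (aged mouse 2) for Ndufv3 and -0.20 (young mouse 1) to 0.18 for Ndufa7. Without both mice the value was -0.40 for Ndufa10, 0.84 for Ndufb2, 0.020 for Ndufb8 and 0.0036 for Ndufv3. It was 0.10 for Ndufb2 and 0.047 for Ndufb8 with normexp, 0.10 for Ndufv3 and 0.064 for Ndufb8 with quantile normalization and -0.14 for Ndufa7 with median scaling. The median of the regulators also turned, to 0.050 with the mean of probes, 0.0049 with the percentile over detected probes, 0.010 with single probes, 0.12 with the row block and 0.021 without both mice, and it ran from -0.074 to 0.031 with 1 mouse left out. The median of the assembly factors was -0.02 without both mice. The cause of these changes was not tested. Ndufa12, Ndufa9, Ndufc2, Ndufs4, Ndufb6 and Ndufa13 kept their direction in all alternatives. Except for Ndufa13, their groups did not overlap, so that leaving out mice could not turn their direction. The trend, the replicate block, the filters and the series matrix left their differences as they were. Many of these alternatives could thus not have changed the direction.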
